A study of Mus musculus with 31 samples.

Results

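The 4 mouse Hox clusters were followed across lung adenocarcinomas that had kept the lung transcription factor Nkx2-1 or had lost it by gene deletion. They were taken as 4 fixed windows of the mouse genome (build mm9): HoxA at chr6:52100001-52220000, HoxB at chr11:96050001-96235000, HoxC at chr15:102745001-102875000 and HoxD at chr2:74485001-74610000. Divided into 5 kb bins, the windows gave 112 bins of 527685 on the 19 autosomes and X, with 24 bins in HoxA, 37 in HoxB, 26 in HoxC and 25 in HoxD. They stand for 38 Hox genes, 10 each in HoxA and HoxB and 9 each in HoxC and HoxD. The windows are given by coordinates alone, and the rule uses no measured value, though it was written with earlier results of these data known.

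All samples were adenocarcinomas of the lung, with Nkx2-1 given as positive or deleted. The mice were 4 to 7 months old, and their strain is given as mixed 129/B6. Other alleles are not given in the sources used here. The treatment text, which is the same for all samples, names intratracheal adenovirus or lentivirus and intraperitoneal tamoxifen without tying either to a sample. Chromatin immunoprecipitation and sequencing measured Nkx2-1 in positive tumors, and in both tumor types Foxa1/2 (1 antibody for both factors) and 4 histone marks: H3K27ac, H3K4me1, H3K4me3 and H3K27me3. Each group held 2 libraries. For the histone marks these came from 1 male and 1 female mouse in each tumor type, while the Foxa1/2 libraries were all male in positive and all female in deleted tumors, so that tumor type and sex cannot be told apart for Foxa1/2. The 22 deposited files held 11 distinct lists, 1 for each group, so no difference below has a replicate check and none was tested. Of the 31 samples, 9 were inputs and were not used here, and 1 input was shared by an Nkx2-1 library and the male positive histone libraries. Reads inside islands ranged from 18.5 to 45.7 M (M, 1e6 reads) per histone list.

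Hox genes encode homeodomain transcription factors that give cells their position along the body axis. They are numbered by paralog group, and the genes lie along each cluster in the order of these numbers. Low-numbered genes are used in anterior tissues and group 13 genes in the most posterior ones, such as distal limb and the genital tract. Silent Hox genes are kept so by Polycomb complexes, which write H3K27me3, while H3K27ac and H3K4me3 accompany active genes and H3K4me1 marks enhancers and the borders of promoters. The lung is a tissue in which anterior HoxA and HoxB genes, Hoxa5 among them, are known to be used.

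The gene order came from RefSeq (GRCm38.p6), in which all 38 genes were found by symbol, and was taken to run the same way in mm9. From low to high coordinates HoxA runs Hoxa2, Hoxa3, Hoxa4, Hoxa5, Hoxa6, Hoxa7, Hoxa9, Hoxa10, Hoxa11 and Hoxa13. The other clusters run the opposite way. HoxB starts with Hoxb13 and goes on with Hoxb9, Hoxb8, Hoxb7, Hoxb6, Hoxb5, Hoxb3, Hoxb4, Hoxb2 and Hoxb1. HoxC runs Hoxc13, Hoxc12, Hoxc11, Hoxc10, Hoxc9, Hoxc8, Hoxc6, Hoxc5 and Hoxc4, and HoxD runs Hoxd13, Hoxd12, Hoxd11, Hoxd10, Hoxd9, Hoxd8, Hoxd3, Hoxd4 and Hoxd1. The order is by the first base of each annotated gene, which puts Hoxb3 before Hoxb4 and Hoxd3 before Hoxd4. In the same order Evx1 follows Hoxa13, Evx2 comes before Hoxd13 and Mtx2 after Hoxd1, and Ttll6 comes before Hoxb13. Coordinates of that build were not carried over to the islands, so no single gene was placed under an island and results are given by stretch of the cluster.

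Promoter sequences of genes at the cluster ends are shown for the base composition of the members' start regions. They were not placed under any island. The RefSeq promoter table held 22 of the 38 genes: 9 each in HoxA and HoxD, 3 in HoxB and 1 in HoxC. Where a gene had several promoters there, as did Hoxa10 and Hoxd11 with 2 each, only the first listed was used. In the 250 bases before the start, the 22 genes had a median of 12 CG dinucleotides (2 to 35), against 6 (0 to 56) over 27025 genes with a promoter in the table. Sequences of 4 genes at cluster ends are printed 5′ to 3′ in lower case with each CG in capitals: Hoxa2, a gene of hindbrain and pharyngeal arch patterning that is the first listed gene at the acetylated end of HoxA; Hoxa13, a limb and genital tract gene at the opposite end; Hoxb1, a hindbrain gene at the end of HoxB; and Hoxd13, the digit patterning gene at the end of HoxD.
Hoxa2 (GRCm38.p6, chr6:52164832-52165081, minus strand): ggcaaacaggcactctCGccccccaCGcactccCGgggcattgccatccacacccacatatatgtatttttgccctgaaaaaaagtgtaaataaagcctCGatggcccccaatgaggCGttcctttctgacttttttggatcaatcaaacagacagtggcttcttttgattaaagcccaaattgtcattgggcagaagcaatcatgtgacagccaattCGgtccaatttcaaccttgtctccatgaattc
Hoxa13 (GRCm38.p6, chr6:52260881-52261130, minus strand): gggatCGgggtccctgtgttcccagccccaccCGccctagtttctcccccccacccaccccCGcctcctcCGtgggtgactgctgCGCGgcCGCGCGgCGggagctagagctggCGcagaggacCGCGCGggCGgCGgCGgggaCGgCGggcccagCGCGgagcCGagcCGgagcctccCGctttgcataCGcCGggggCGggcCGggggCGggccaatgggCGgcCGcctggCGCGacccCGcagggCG
Hoxb1 (GRCm38.p6, chr11:96365508-96365757, plus strand): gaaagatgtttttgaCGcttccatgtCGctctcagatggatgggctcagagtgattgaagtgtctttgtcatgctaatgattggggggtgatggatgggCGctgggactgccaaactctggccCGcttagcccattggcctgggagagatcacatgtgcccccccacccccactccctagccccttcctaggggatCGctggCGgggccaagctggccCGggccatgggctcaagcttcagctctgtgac
Hoxd13 (GRCm38.p6, chr2:74667975-74668224, plus strand): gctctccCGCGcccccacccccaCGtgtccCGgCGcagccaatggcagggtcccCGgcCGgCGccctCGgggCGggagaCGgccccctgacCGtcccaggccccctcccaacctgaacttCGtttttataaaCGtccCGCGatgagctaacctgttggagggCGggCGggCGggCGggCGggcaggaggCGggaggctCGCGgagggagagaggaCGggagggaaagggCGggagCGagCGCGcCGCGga
The Hoxa2 sequence held 6 CG and the Hoxb1 sequence 7. The Hoxa13 sequence held 35 and the Hoxd13 sequence 31. These 4 do not stand for the other members: Hoxd1, at the low-numbered end of HoxD, held 24 CG and Hoxd11 held 2. On either strand, the Foxa motif letters TGTTTAC were in 0 of the 22 promoters and in 3.09% of all promoters, and the Nkx2-1 motif letters CAAGTG were in 1 of 22 (Hoxd12) and in 11.6% of all. These matches describe letters only.

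Acetylated chromatin was found in HoxA and HoxB and was nearly missing from HoxC and HoxD. In positive tumors H3K27ac islands covered 43.7% of the HoxA window (52.4 kb), 28.8% of HoxB (53.2 kb), 0.462% of HoxC (0.6 kb) and 0% of HoxD. In deleted tumors the values were 41.0% of HoxA, 26.3% of HoxB and 0% of both HoxC and HoxD. A bin was called marked when islands covered at least 50% of it. By this rule 22 of 112 bins (19.6%, 95% Wilson interval 13.3 to 28, counting error only) were acetylated in positive and 20 (17.9%, 11.9 to 26) in deleted tumors, against 10.4% and 7.86% of all bins. With the positive list reduced to its densest islands so that both lists covered equal length, the shares were 16.1% and 17.9%.

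In HoxA the acetylated stretch lay at the low-numbered end, and its outer bases were the same in both tumor types. It ran over chr6:52107801-52171800, a span of 64 kb made of 8 islands in each list. Islands filled 81.9% of the span in positive and 76.9% in deleted tumors. The 48.2 kb from there to the Hoxa13 end of the window held no H3K27ac island in either list. The widest HoxA island measured 24.4 kb in positive tumors, at chr6:52107801-52132200, wider than 99.0% of its list. Its counterpart in deleted tumors measured 24.2 kb and was wider than 99.2% of its list.

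In HoxB the acetylated stretch lay inside the window, away from both ends. It spanned 71.6 kb in positive tumors (chr11:96145001-96216600) and 71.8 kb in deleted tumors (chr11:96144601-96216400), with 8 islands in each list that filled 74.3% and 67.7% of it. The 95 kb at the Hoxb13 end and the 18.4 kb at the Hoxb1 end were free of H3K27ac in positive tumors, and 94.6 and 18.6 kb were free in deleted tumors. Hoxb13, a gene known from prostate and hindgut, is the first listed gene at the longer free end. The widest HoxB island was 19.2 kb in positive tumors, at chr11:96163601-96182800, and in deleted tumors the same stretch held islands of 14.4 and 4.4 kb.

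By bins, the acetylated part of HoxA was 1 run of 11 bins in positive tumors (chr6:52110001-52165000) and 2 runs of 5 bins in deleted tumors, parted by the bin chr6:52135001-52140000 with 32% cover. In HoxB it was 3 runs in both. These were 1, 7 and 3 bins long in positive and 1, 6 and 3 bins long in deleted tumors. The bin that left the middle run, chr11:96190001-96195000, had 60% cover in positive and 40% in deleted tumors, and most of the 1.0 kb island lost in HoxB lies in it.

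HoxC held a single H3K27ac island, 600 bp with 47 reads in positive tumors at chr15:102829601-102830200, and HoxD held none in either list. Both clusters include genes of posterior and limb patterning, such as Hoxc8 to Hoxc13 and Hoxd9 to Hoxd13, but also low-numbered genes such as Hoxc4 and Hoxd1.

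**Figure D1:**
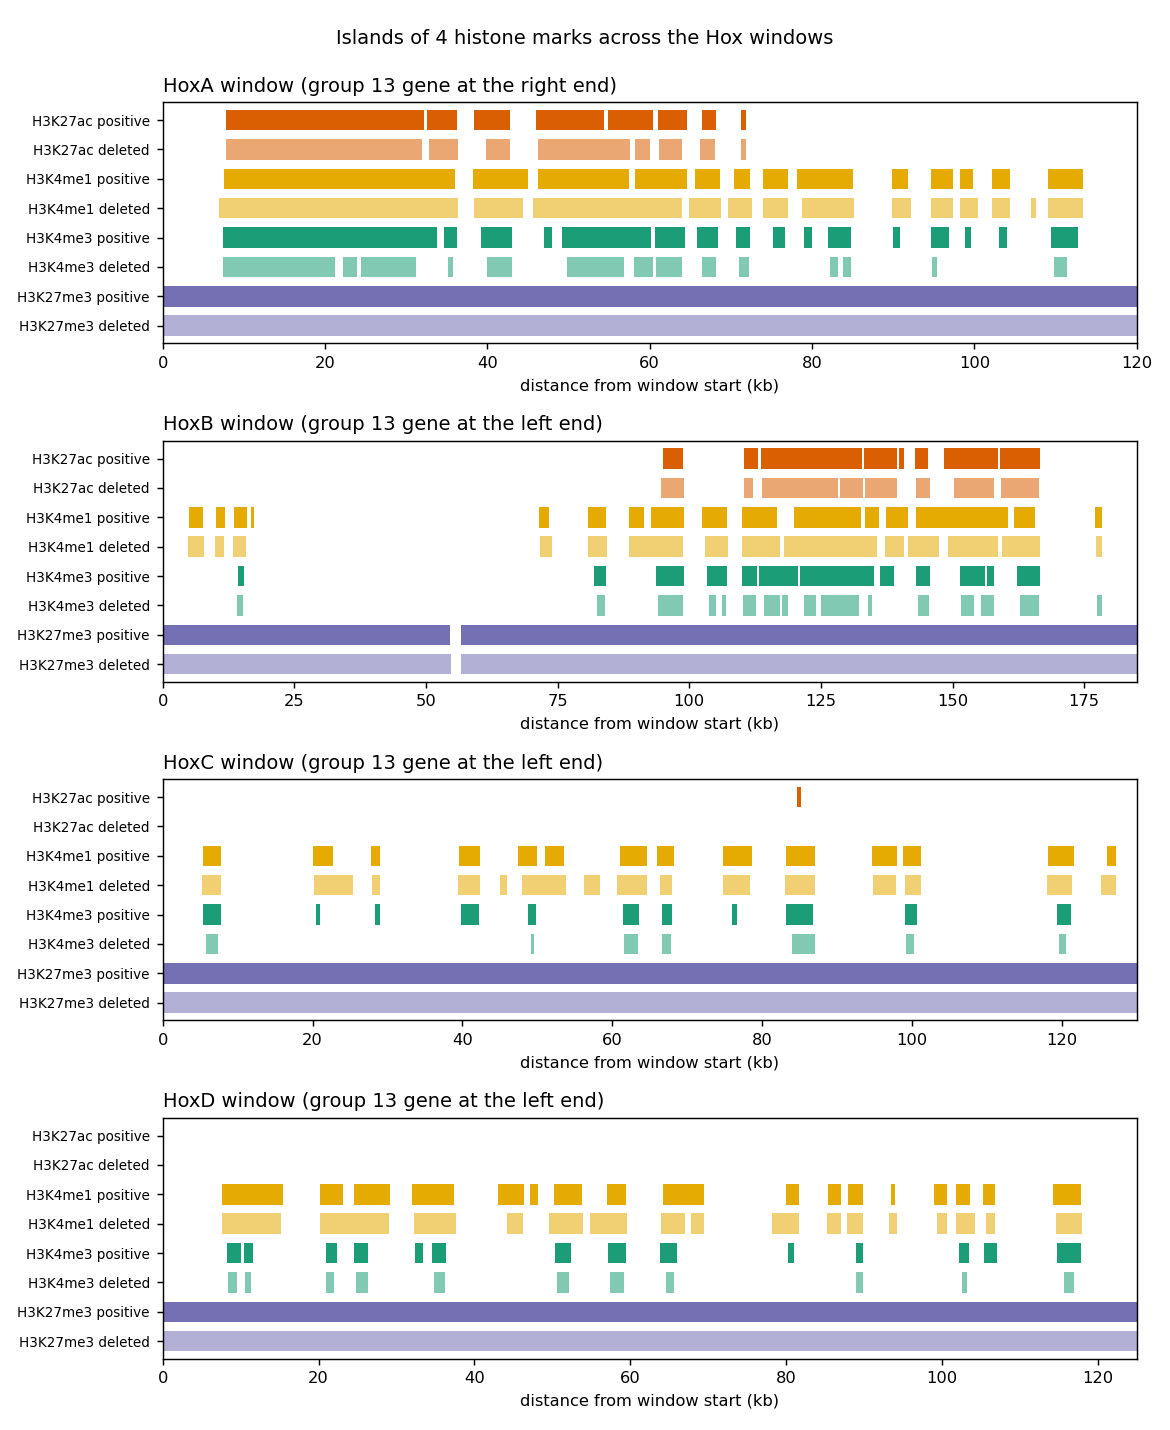
Islands of 4 histone marks in positive (full tone) and deleted tumors (pale tone) along each Hox window, with distance from the window start in kb on the horizontal axis and 1 lane per list. H3K27ac forms a stretch of 64 kb in HoxA and about the same length in HoxB (71.6 and 71.8 kb), is 1 island of 600 bp in HoxC and absent from HoxD, while H3K27me3 fills all lanes but for a short gap in HoxB.

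H3K27me3 covered the clusters almost without a break in both tumor types. Its islands covered 100% of HoxA, HoxC and HoxD in each list, and 98.9% of HoxB in positive and 99.0% in deleted tumors. All 112 bins were marked in both (96.7 to 100%), against 19.1% of all bins in positive and 18.3% in deleted tumors. These islands were among the longest and most read of their lists. The island over HoxC had rank 1 of 53052 by width and by reads in positive tumors (402 kb, 29666 reads) and rank 1 of 51840 by both in deleted tumors (263 kb, 29301 reads).

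The borders of the Polycomb islands lay outside the windows and differed from cluster to cluster. The HoxA island had the same first and last base in both lists, chr6:52073001-52280200 (207 kb), with rank 3 by width in positive and rank 9 in deleted tumors. The HoxC island ran over chr15:102570801-102972600 in positive and chr15:102717801-102981200 in deleted tumors. The HoxD island measured 179 kb in positive and 194 kb in deleted tumors. HoxB lay under a pair of islands parted by a short gap, of 125 and 132 kb in positive and 125 and 149 kb in deleted tumors. In the 50 kb on either side of the windows, H3K27me3 still covered 92.0 to 100% in all lists, and H3K27ac was 0% everywhere except beyond the Hoxb1 end, where it covered 17.2% in positive and 15.6% in deleted tumors.

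The acetylated stretches of HoxA and HoxB therefore lay under H3K27me3 islands, a combination that was uncommon elsewhere. All 22 acetylated Hox bins of positive tumors and all 20 of deleted tumors also carried H3K27me3, against 6.21% and 6.78% of all acetylated bins. Since all 112 Hox bins carried H3K27me3, this is not particular to the acetylated ones. By their file names the H3K27me3 and H3K4me1 lists joined 200 bp windows across gaps of up to 600 bp, and the H3K27ac and H3K4me3 lists across 200 bp, so cover does not mean that each window was marked. With 1 read count per island, how H3K27me3 reads were spread between the acetylated and the other stretch of a cluster cannot be read from these lists. In bulk tumors, both marks on the same chromosomes cannot be told apart from marks in different cells, nor fewer marked cells from less mark per cell.

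H3K4me3 was broad where H3K27ac lay and narrow elsewhere. In HoxA it covered a mean of 81.8% of the acetylated bins and 31.4% of the other bins in positive tumors, and 70.8% and 14.9% in deleted tumors. In HoxB the values were 75.6% and 8.31% in positive and 55.2% and 7.56% in deleted tumors. The widest island in the clusters, 26.4 kb at chr6:52107401-52133800 in HoxA, had rank 12 by width of 41584 H3K4me3 islands in positive tumors. In deleted tumors that place held an island of 13.8 kb, chr6:52107401-52121200, with rank 23 of 30992, and 2 more of 1.8 and 6.8 kb.

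In HoxC and HoxD, H3K4me3 came as short islands on the Polycomb background. HoxC held 11 islands in positive tumors (median width 1600 bp) and 7 in deleted tumors (1200 bp). HoxD held 14 (1700 bp) and 11 (1200 bp). All of these overlapped H3K27me3. In positive tumors 10 of the 11 HoxC islands and all 14 HoxD islands overlapped no H3K27ac, and in deleted tumors this held for all 7 and all 11. Over all 4 clusters, 35 of 53 H3K4me3 islands in positive and 27 of 48 in deleted tumors had H3K27me3 without H3K27ac, a combination seen in 7.39% and 8.8% of all H3K4me3 islands.

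H3K4me1 covered more of each cluster than H3K27ac or H3K4me3 did, in lists that also joined wider gaps. It covered 67.2% of HoxA, 40.9% of HoxB, 29.4% of HoxC and 40.5% of HoxD in positive tumors. In deleted tumors it covered 70.7%, 43.0%, 34.3% and 43.2%, which was more in each cluster. Marked bins numbered 47 of 112 in positive and 54 in deleted tumors, where 11.3% and 10.5% of all bins were marked. For H3K4me3 they numbered 24 and 14, where 2.82% and 1.5% of all bins were marked. H3K4me1 was present where H3K27ac was not: in HoxD it had 17 islands in positive and 16 in deleted tumors, and 0 of them overlapped H3K27ac.

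**Figure D2:**
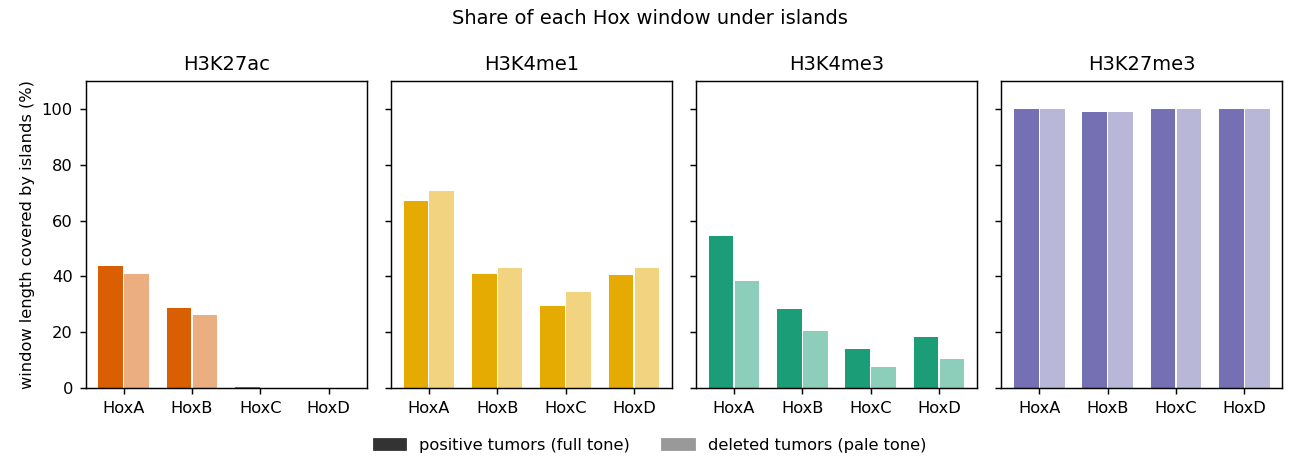
Percent of each Hox window covered by islands of each mark, as bars for positive (full tone) and deleted tumors (pale tone), 1 merged list per bar. H3K27me3 stands at 98.9 to 100% in all clusters, H3K27ac is seen in HoxA and HoxB, and the H3K4me3 bars are lower in deleted tumors in each cluster.

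The comparison of tumor types asks whether the chromatin of the clusters moved when Nkx2-1 was deleted. For H3K27ac the islands kept nearly the same place. A bin was called changed when its cover differed by at least 50 percentage points, and 0 of 112 bins were lower and 0 higher in deleted tumors, against 1.85% and 0.432% of all bins. Of the 22 Hox bins acetylated in either tumor type none passed, against 16.2% lower and 3.78% higher among all bins acetylated in either. Single bins ranged from -24 to 8 points. With the upper 50% of islands by density 3 bins were lower (2.68%), and in 2 kb bins 3 of 279 (1.08%). The whole H3K27ac list held 45.7 M island reads over 292 Mb in positive and 31.2 M over 227 Mb in deleted tumors. The bases acetylated in both lists made up 0.910 of those acetylated in either in HoxA and 0.871 in HoxB (Jaccard index), against 0.613 over the genome. Of 17 islands in positive tumors, 2 had no counterpart (11.8%, against 32.3% in the whole list): the HoxC island and 1 of 1.0 kb in HoxB at chr11:96189801-96190800. Of 16 islands in deleted tumors, 0 lacked a counterpart, against 10.8%. The HoxA and HoxB islands were wider than most, with medians of 4000 and 5000 bp in positive tumors against 2400 bp in the whole list. In deleted tumors the medians were 2900 and 5200 bp against 2200 bp. How far width sets the shares of changed bins, the Jaccard index and the counterparts was not tested.

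H3K27me3 cover was the same to within 4 points in each bin. It differed in 1 of 112 bins, in HoxB, and 0 were called lower or higher, against 3.03% lower and 2.16% higher of all bins, and 13.7% and 9.74% of bins marked in either tumor type. Of the 5 islands over the windows in either list, 0 lacked a counterpart, against 19.8% of the positive and 17.8% of the deleted list. These islands were far wider than the list medians of 6000 bp (positive) and 5400 bp (deleted). With 1 bp of overlap making a counterpart, 0 was the likely outcome.

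H3K4me3 cover was lower in deleted tumors both inside and outside the acetylated stretches. The whole H3K4me3 list was also smaller in deleted tumors, with 19.6 M island reads over 64 Mb against 28.9 M over 104 Mb. With the positive list reduced to its densest islands so that both lists covered equal length, 16.1% of Hox bins were marked in positive and 12.5% in deleted tumors, 1 bin was lower and 1 higher by 50 points, and the ratio of scaled reads was 0.908 in place of 0.779. Depth itself was not evened out. Bin cover was lower in deleted tumors in 59 of 112 bins, equal in 50 and higher in 3, with single bins from -60 to 20 points. Of the 112 bins 2 passed the 50 point rule, both lower (1.79%, against 0.452% of all bins). As a share of the 24 bins marked in either tumor type this was 8.33%, against 15.8%. As deposited, 0 were higher, against 0.00303% of all and 0.106% of marked bins. The HoxA bin was chr6:52130001-52135000, with 84% cover in positive and 24% in deleted tumors. There H3K27ac covered 92% and 84%. The HoxB bin was chr11:96185001-96190000, with 52% and 0%, where H3K27ac covered 92% and 88%. In these bins H3K27ac cover differed by 8 and 4 points.

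Among H3K4me3 islands of positive tumors, most of those without a counterpart lay outside acetylated chromatin, as did most islands (35 of 53). Of 53 islands in positive tumors, 14 had no counterpart in deleted tumors (26.4%, against 31.5% of the whole list, a share near the background). Among those without H3K27ac, 12 of 35 were lost (34.3%), against 23.2% of all H3K4me3 islands with H3K27me3 and without H3K27ac. Among those with H3K27ac, 2 of 18 were lost (11.1%), against 31.5%. In HoxA and HoxB of positive tumors, islands with H3K27ac had median widths of 3200 and 4400 bp, against 1200 and 2200 bp without. Since 1 bp of overlap made a counterpart, a wide island that shrank or broke up counted as kept. How far width sets these shares was not tested. By cluster, those lost without H3K27ac were 5 of 8 in HoxA, 0 of 3 in HoxB, 4 of 10 in HoxC and 3 of 14 in HoxD. These counts are small, and differences between clusters were not tested. All 8 HoxA islands without H3K27ac, lost or kept, lay between the acetylated stretch and the Hoxa13 end. The 5 lost ones were 800 to 1400 bp wide and carried 40 to 82 reads each. In the other direction 1 of 48 islands of deleted tumors had no counterpart (2.08%, against 3.24%), a 1.0 kb island at chr11:96227401-96228400 toward the Hoxb1 end. It was 1 of 27 without H3K27ac (3.7%, against 3.74%), and 0 of 21 with H3K27ac were new (against 2.89%).

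H3K4me1 cover was higher in deleted tumors in 44 bins, equal in 44 and lower in 24, from -36 to 48 points. By the 50 point rule 0 bins were lower and 0 higher, against 0.917% and 0.363% of all bins and 7.18% and 2.85% of marked bins. Of 60 islands in positive tumors 2 had no counterpart (3.33%, against 23.1%), and of 58 in deleted tumors 3 had none (5.17%, against 8.39%). The bin nearest to the rule was chr11:96165001-96170000 in HoxB, which went from 36% to 84%, where H3K27ac covered 100% in both tumor types.

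**Figure D3:**
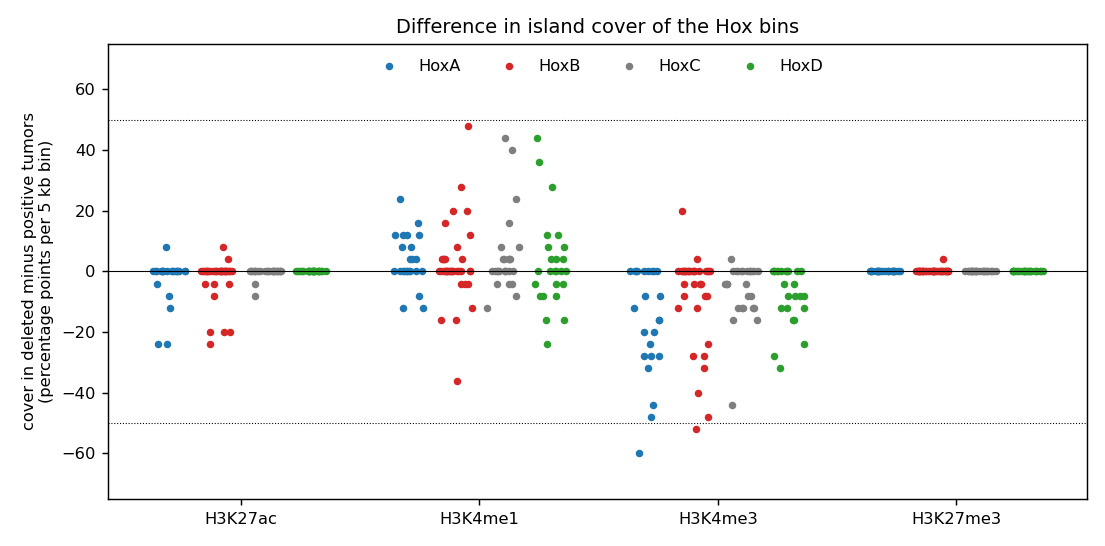
Difference in island cover between deleted and positive tumors, in percentage points, for each of the 112 Hox bins, by mark and cluster (small sideways scatter added for display). Dotted lines mark the 50 point rule, which 2 H3K4me3 bins pass at -60 and -52 points.

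Cover cannot show how many reads an island held, so island reads were also scaled to the island reads of the same list, as RPM (with island reads as the total). The H3K27me3 islands reach beyond the windows and have 1 count each, so whole islands were compared first. Islands over HoxA held 819 RPM in positive and 1106 in deleted tumors, a ratio of 1.35. For HoxB the values were 1000 and 1379 (1.38) and for HoxD 769 and 1004 (1.31). HoxC went the other way, with 1600 and 1479 (0.924), where the positive island was 402 kb and the deleted one 263 kb long.

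The deleted list held a further island under the span of the long HoxC island. When all islands joined by overlap in either list were summed, a span of 410 kb with 2 islands in each list gave 1622 RPM in positive and 2040 in deleted tumors at HoxC, a ratio of 1.26. The same sums gave 1.35 at HoxA, 1.32 at HoxB and 1.24 at HoxD. Direction at HoxC thus depends on whether the neighbouring island is counted. Reads per kb of the islands over the windows, not scaled for depth, were 73.3 and 106 at HoxA, 72 and 99.7 at HoxB, 73.8 and 111 at HoxC and 79.5 and 102 at HoxD, from lists of 18.5 and 19.8 M island reads.

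If each island's reads are taken as spread evenly over its length, which these lists cannot show, the windows themselves held 474 RPM in positive and 640 in deleted tumors at HoxA, 714 and 934 at HoxB, 518 and 730 at HoxC and 536 and 646 at HoxD. The ratios on that assumption were 1.35, 1.31, 1.41 and 1.21, and 1.32 over all 4 windows. Over all bins marked in both lists, treated the same way, the median ratio was 1.03, with quartiles of 0.896 and 1.18. Bins inside other autosomal islands of at least 100 kb in both lists (1068 bins) had a median ratio of 1.15, with quartiles of 1.08 and 1.24, and 31.6% of them were at or above the lowest Hox cluster.

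The 3 active-side marks did not move together on this scale. H3K27ac went from 190 to 160 RPM in HoxA and from 159 to 124 in HoxB. Over the 20 bins marked in both lists the median ratio was 0.823 (0.673 to 1.27), inside the quartiles of all such bins (median 1.09, 0.777 to 1.44), with 18 of the 20 below that median. H3K4me3 went from 425 to 349 in HoxA, 268 to 215 in HoxB, 77.5 to 48.4 in HoxC and 95.7 to 63.5 in HoxD. Its 14 bins marked in both lists had a median ratio of 0.965 (0.565 to 1.37), against a median of 1.15 and quartiles of 0.992 and 1.30 over all such bins, with 11 of 14 below that median. H3K4me1 was higher in deleted tumors in each cluster, 217 and 275 in HoxA, 168 and 196 in HoxB, 113 and 146 in HoxC and 131 and 176 in HoxD. Its 46 bins had a median ratio of 1.22, inside quartiles of 0.836 and 1.27, with 37 of 46 above the median of 1.04. Bins under 1 island share its single read count, so these counts of bins above or below a median are not counts of independent observations. Only the counting error of these sums is known, and the spread between mice is not.

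**Figure D4:**
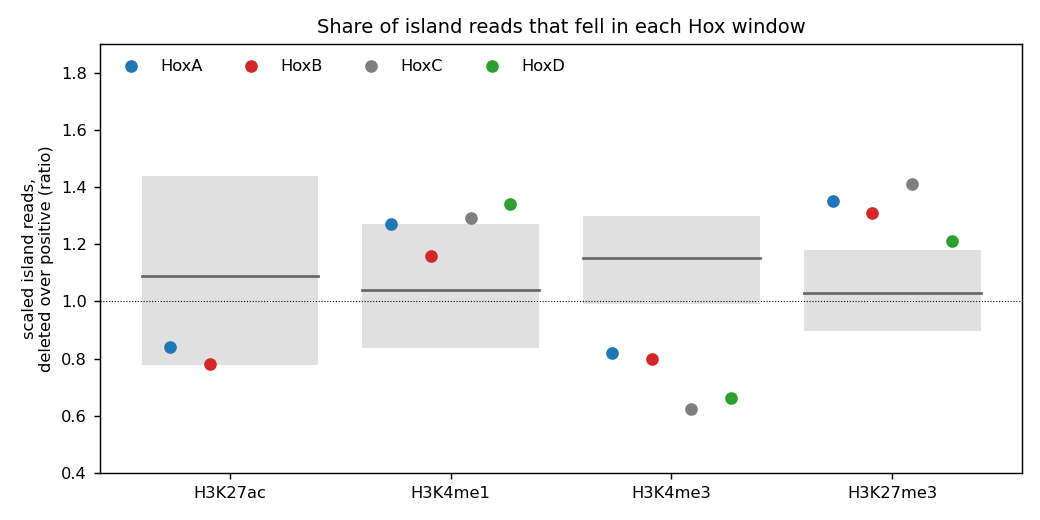
Ratio of deleted to positive tumors for the share of island reads that fell in each Hox window (points, 1 per cluster), by mark, with the reads of an island taken as spread evenly over its length. Grey boxes and lines give the quartiles and median of the ratios of single 5 kb bins, over all bins marked in both tumor types. Points sum the island reads of a whole window, also in bins that were not marked, so points and boxes are unlike measures. For H3K4me3 the 14 Hox bins marked in both had a median ratio of 0.965. HoxC and HoxD have no H3K27ac point, and the 4 H3K27me3 points (1.21 to 1.41) lie above the grey box, while the whole HoxC island has a ratio of 0.924.

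None of the 3 factor lists had a peak in the clusters. Of 29782 Nkx2-1 peaks and 23039 and 14526 Foxa1/2 peaks in positive and deleted tumors, 0 overlapped a window. Summits lay in 5.02%, 4% and 2.6% of all bins, and in 35.4%, 27.9% and 23% of acetylated bins. Among acetylated bins that also carried H3K27me3, as the acetylated Hox bins did, 5.49%, 4.35% and 8.1% held a summit, and among all bins under H3K27me3 0.75%, 0.62% and 0.723% did. The acetylated Hox bins number 22 and 20, too few for a count of 0 to be set apart from shares of that size.

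The length of the peak-free span around each cluster was not compared with other regions. For Nkx2-1 the nearest peaks left 504 kb free around HoxA, 513 kb around HoxB, 364 kb around HoxC and 840 kb around HoxD. For Foxa1/2 the free spans were 390, 333, 499 and 881 kb in positive tumors and 696, 910, 635 and 1380 kb in deleted tumors. The Foxa1/2 list of deleted tumors was the shorter one, so its longer gaps are not read as a change. The Foxa1/2 peak nearest to any window in positive tumors lay 52.4 kb beyond the Hoxb1 end, at chr11:96287370-96288101. Its score of 66 was close to the lowest in the list, 60, and deleted tumors had no peak before 374 kb on that side.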

How the data were processed

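Chromatin immunoprecipitation libraries of lung adenocarcinomas were analysed from the authors' island and peak lists. Build mm9 and the tools MACS 1.4.2, SICER 1.1 and Bowtie are listed, per the submitters' processing notes, without their roles. Per the file names, peaks were called at p 1e-06, islands at a false discovery rate of 0.01 in 200 bp windows with gaps of 200 or 600 bp, and libraries were merged. Both files of each of the 11 groups were identical, so each group is 1 list, with no replicate spread and no test. The deposited island files give a read count for each island, not scaled for depth. The deposited peak files give a score for each peak, used only within a list.

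Cover of 5 kb bins on 20 chromosomes was computed with Python 3.11.15 and numpy 2.4.6, with Wilson intervals from scipy 1.17.1 and figures from matplotlib 3.10.9. A bin was marked at 50% cover and changed at 50 points. Islands overlapped at 1 bp. Reads of an island that crosses a window or bin edge were shared out by length. Intervals over bins cover counting error only, and neighbouring bins share islands. Named regions were, for each cluster, the widest island of each mark, each run of bins of 1 state and each changed bin; further regions were chosen after their values were seen. As a check of the code on simulated data without noise, 200 of 200 emptied bins among 2000 were called and 0 others. Only well covered bins were emptied, so this outcome was fixed and does not measure how well partial losses are called. An mm9 annotation was not used here, so the windows were not checked against gene positions. Members and lists were chosen with earlier results of these data known. Other bin sizes, thresholds and scalings were tried.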

Additional observations from a re-analysis of the deposited data

How the results depend on the processing

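Of 105 alternative values for 23 results, 78 stayed within their limits (the counting interval of the reported value), 27 moved and 0 reversed. The H3K27ac and H3K27me3 shares of marked bins and the 0 factor peaks were among those that stayed. Each share was judged alone. With equal covered length, H3K27ac marked 16.1% of Hox bins in positive and 17.9% in deleted tumors, the opposite order to the reported 19.6% and 17.9%. The factor peaks had to stay at 0, since each alternative only removed peaks or made the overlap rule stricter. With a cover threshold of 25% in place of 50%, H3K4me1 marked 63.4% of Hox bins in positive and 65.2% in deleted tumors, and H3K4me3 43.8% and 27.7%. With 75% these were 23.2%, 30.4%, 12.5% and 6.25%. With the upper 50% of islands, H3K4me1 marked 17.9% and 28.6%. The share of bins with higher H3K4me1 in deleted tumors, 0% as reported, became 3.94% in 2 kb bins, 6.25% at 25 points, 8.04% with the upper 50% of islands and 7.14% with lists of equal covered length. The share with lower H3K4me3, 1.79% as reported, became 14.3% at 25 points, 0% at 75 points, 8.04% with the upper 50% of islands, 6.09% in 2 kb bins and 0.893% with equal covered length, where the share with higher H3K4me3 went from 0% to 0.893%. Lower H3K27ac, 0% as reported, became 2.68% with the upper 50% of islands and 1.08% in 2 kb bins. Lower H3K4me1, 0% as reported, became 1.08% in 2 kb bins and 0.893% both at 25 points and with the upper 50% of islands. The ratios of scaled reads were recomputed by alternatives chosen after seeing the data. Scaled by the median bin they were 0.742 for H3K27ac, 1.21 for H3K4me1, 0.676 for H3K4me3 and 1.27 for H3K27me3. With equal covered length they were 0.759, 1.34, 0.908 and 1.28, and over autosomes 1.28 for H3K27me3. With the reads of whole islands H3K27me3 gave 1.19, and HoxC alone 0.924. The cause of these moves was not tested. Leaving out a library could not be run, since both files of a group are identical. No paired analysis was possible because each group is 1 merged list.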
